A study of Mus musculus with 2 samples.

Results

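Langerhans cells are the antigen-presenting cells of the epidermis, and 10 genes linked to growth factor signalling are described in them here. These are the ligands Csf1 and Il34, the receptor genes Csf1r, Kit, Flt3, Csf2ra, Csf2rb and Csf2rb2, and the transcription factors Spi1 and Cebpa. The genes were chosen by name, as those with a probe set that the platform annotation gives to 1 gene symbol alone. All 10 were measured, each by 1 probe set, among 19937 genes in all. Mice of 2 genotypes were compared, Il34+/LacZ, with 1 intact copy of Il34 and a LacZ allele in place of the other, and Il34LacZ/LacZ, with the LacZ allele in both copies. Both groups were 8 to 12 weeks old, both had been exposed to ultraviolet light for 30 min, and in both the cells sorted as Langerhans cells, positive for Langerin and Epcam, were collected on day 21 after exposure. The comparison holds no unexposed group and no group with 2 intact copies of Il34. Each genotype has 1 array (n = 1), and whether an array holds RNA of 1 animal or of several is not stated in the labels. No test between genotypes can therefore be made, and each value below is a single reading.

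The CSF1 receptor, encoded by Csf1r, is a tyrosine kinase of monocytes, macrophages and Langerhans cells with a pair of ligands, CSF1 and IL-34. In skin IL-34 is made mainly by keratinocytes, and Langerhans cells in steady state depend on it. KIT, the receptor for stem cell factor, and FLT3, the receptor for FLT3 ligand, belong to the same family of kinases. The receptor for GM-CSF joins an alpha chain, Csf2ra, to a beta chain, Csf2rb, that is shared with the interleukin-3 and interleukin-5 receptors. Mice carry a second beta chain gene, Csf2rb2, which serves interleukin-3 alone. PU.1, encoded by Spi1, and C/EBP alpha, encoded by Cebpa, are transcription factors of myeloid cells, and PU.1 is known to act on the genes of several of these receptors.

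Most of the receptors gave a lower reading without intact Il34, and so did most genes of their level. Values are the authors' processed intensities, and a difference is the log2(intensity + 16) reading of Il34LacZ/LacZ minus that of Il34+/LacZ. Of the 10 genes, the reading of 7 was at least 1.5-fold lower in Il34LacZ/LacZ, while that of 1 was at least 1.5-fold higher, against 28.2% and 9.36% of the 12843 genes at or above the floor. The floor is the median of all probe sets on both arrays, an intensity of 48.7, and a gene was at or above it if its brighter reading was. The median difference was -0.85 over the 10 genes and -0.16 over those 12843. Across the arrays, genes of middle and high level read lower in Il34LacZ/LacZ as a class. Among the 500 genes nearest in mean level to each of the 8 receptor and factor genes, between 42.6% and 57.6% were likewise at least 1.5-fold lower. Once a loess trend of the difference on level was removed, 3 of the 10 genes were at least 1.5-fold lower (Csf2rb2, Flt3 and Kit) and 1 higher (Csf1), against 18.6% and 13.9% of all genes, and the median was -0.33 against 0.03. Over all genes that were 1.5-fold apart, those higher in Il34LacZ/LacZ made up 24.9% as deposited, 42.8% with the trend removed, 45.9% after quantile normalization and 12.7% after centring both arrays on their medians. Calls with the trend removed did not set a reading below the floor to the floor, whereas the other calls did. The only error the file holds is the disagreement of different probe sets of one gene, an SD of 0.63 on the log2 scale (614 genes), or 1.55-fold. It does not cover animals, sorts or amplifications.

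**Figure D1:**
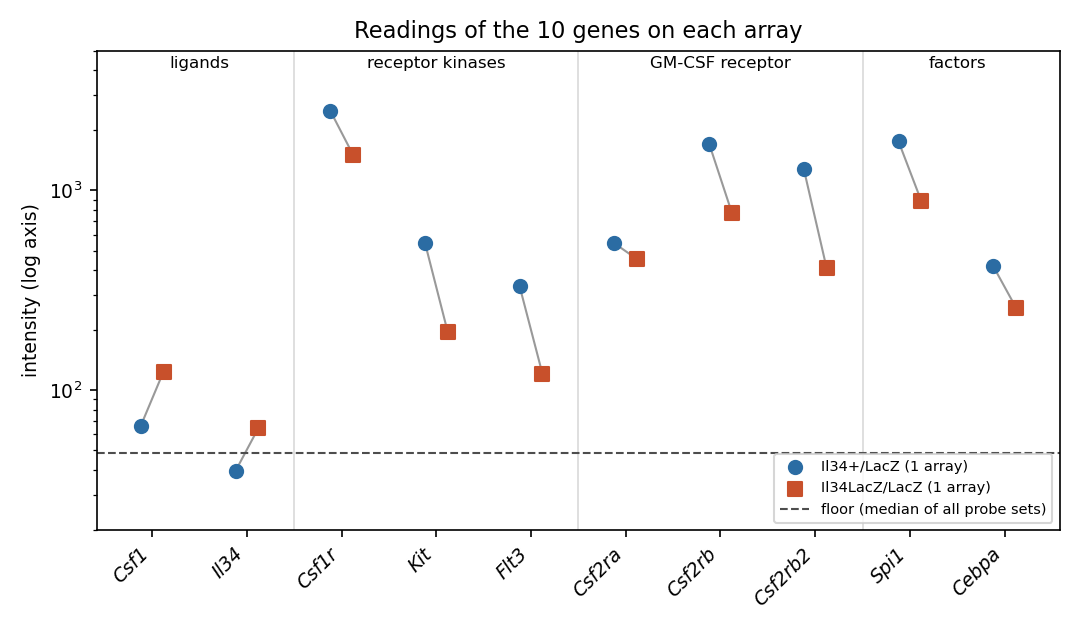
Intensity on a log axis of the 10 genes on the Il34+/LacZ array (circles) and the Il34LacZ/LacZ array (squares), 1 array a genotype, joined by a line for each gene. Both ligands read higher in Il34LacZ/LacZ and the 8 receptor and factor genes lower. Il34 in Il34+/LacZ, at 39.4, is the only reading below the dashed floor of 48.7.

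**Figure D2:**
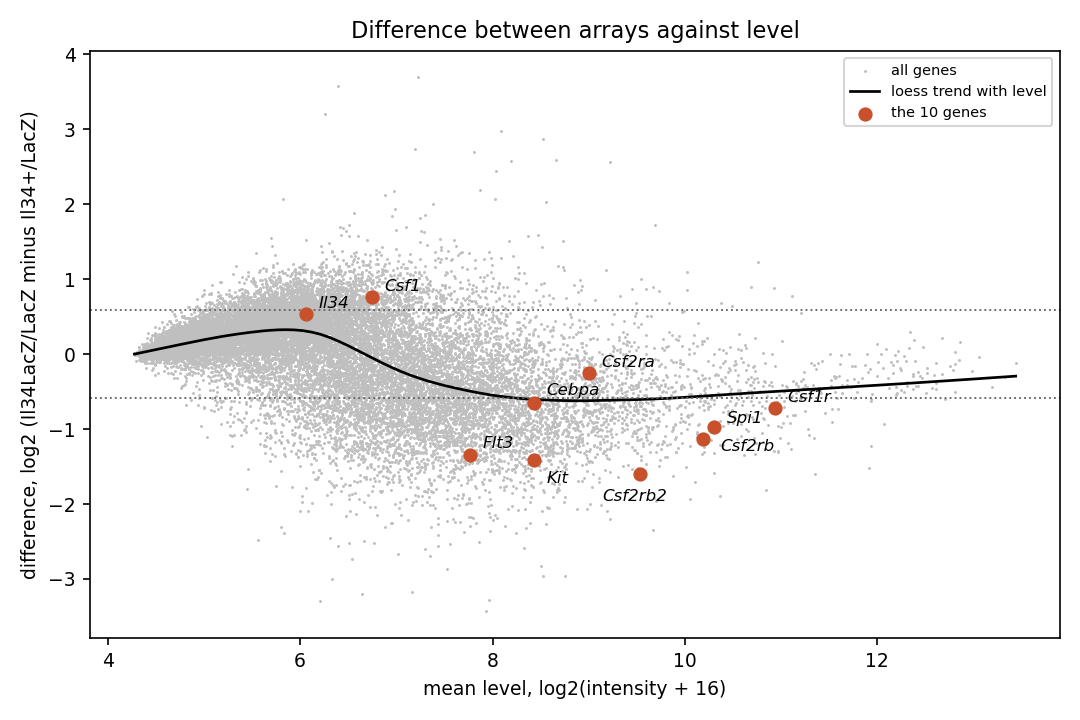
Difference between arrays (log2, Il34LacZ/LacZ minus Il34+/LacZ) against the mean log2 level of a gene, for all 19937 genes (grey) and the 10 genes (red), with the loess trend as a line and dotted lines at 1.5-fold. The cloud bends below 0 at middle and high level, where the receptor and factor genes lie, so that Cebpa sits on the trend while Csf2rb2, Kit and Flt3 lie below it.

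The targeted gene was read close to the floor on both arrays. Il34 read 39.4 (Il34+/LacZ) and 64.4 (Il34LacZ/LacZ). The lower of these readings is under the floor, and against the floor Il34 was at least 1.24-fold higher in the mice whose copies both carry LacZ. Its difference of 0.54, or 0.23 with the trend removed, is within 1 probe set SD, and the median of the 500 genes of its level was 0.34. Where the probes of Il34 lie relative to the LacZ cassette was not analysed here, so this reading checks no label. Keratinocytes, its known source in skin, are not the sorted cells, and of 10 keratinocyte markers 9 were at or above the floor in Il34+/LacZ and 8 in Il34LacZ/LacZ. Their summed intensity was 4127 (Il34+/LacZ) and 709.8 (Il34LacZ/LacZ), with Krt5, Krt14 and Krt10 brightest. Dsg3 was below the floor on both arrays. Their part in the Il34 and Csf1 readings was not tested, and the Il34 and Csf1 readings ran in the opposite direction to that sum.

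Csf1, the other ligand of the receptor, was the only one of the 10 genes at least 1.5-fold higher, a call that does not hold with a pseudocount of 64 (0.53) or with a floor at the 75th percentile, which leaves Csf1 out. It read 66.3 (Il34+/LacZ) and 123.8 (Il34LacZ/LacZ), a difference of 0.76 (1.70-fold), and 0.81 with the trend removed. Of the 500 genes nearest in level 39 had a larger difference, the median of these genes was -0.08, and Csf1 lay above their 90th percentile of 0.69. At 1.21 probe set SDs the difference is small for a single pair of readings not far above the floor. CSF1 is made by fibroblasts and endothelial cells among others, and the 9 markers of those cells summed to 454 (Il34+/LacZ) and 677.5 (Il34LacZ/LacZ). Of these 9, Dcn, Pdgfra and Pecam1 were below the floor on both arrays, and 4 and 6 were at or above it in Il34+/LacZ and Il34LacZ/LacZ. Vwf, Col1a1 and Col1a2 were brightest. Cdh5, Col1a2 and Col3a1 were at least 1.5-fold higher and none lower, beside 9.36% and 28.2% of all genes. With the trend removed 3 were higher and none lower, beside 13.9% and 18.6%. The part of such cells in the Csf1 reading was not tested. In sorted bulk cells, a change in the number of cells of a type and a change in RNA per cell cannot be told apart.

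Among the ligands of the other receptors, Flt3l, which encodes the FLT3 ligand, was the one read clearly above the floor. It read 369.5 (Il34+/LacZ) and 442.7 (Il34LacZ/LacZ), a difference of 0.25 that grew to 0.87 with the trend removed. Kitl, Csf2, Il3 and Il5, which encode stem cell factor, GM-CSF, interleukin-3 and interleukin-5, were below the floor on both arrays, and no fold is given for them. Of the 7 ligand genes, 3 were thus at or above the floor, Csf1 and Il34 of the 10 genes among them. Of these 3, 1 was at least 1.5-fold higher as deposited and 2 with the trend removed, beside 9.36% and 13.9% of all genes. A list of 3 genes is too short to set against those shares. The first is Csf1, and with the trend removed Flt3l joins it. Of 3 other proteins reported to bind IL-34, the surface proteoglycan gene Sdc1 read 47.8 and 86.1, at least 1.58-fold higher, the phagocyte receptor gene Trem2 read 105.8 and 118.7, and the phosphatase gene Ptprz1 was below the floor on both arrays. The call of Sdc1 does not hold with the trend removed (0.47), with a pseudocount of 64 or with median centring.

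The receptors spanned a range of differences relative to genes of their level, and the stretch upstream of 4 of them is shown so that both ends of that range can be compared. The RefSeq promoter table of GRCm38.p6 held 6 of the 10 genes (Csf1, Kit, Flt3, Cebpa, Csf2rb2 and Csf2ra). Each window is the 250 bases before the table's start, in the direction of the gene, with -1 for the last of them. For Csf2ra the last 43 bases of the window lie inside the annotated gene and are not printed, which leaves 207. For Kit the first listed start was used. Capitals mark GAGGAA, the purine-rich core that PU.1 binds, on either strand. Csf2rb2 (chr15:78305722-78305971, minus strand), Kit (chr5:75574737-75574986, plus strand) and Flt3 (chr5:147400490-147400739, minus strand) had the lowest readings relative to level, and Csf2ra (chr19:61228462-61228668, minus strand) the highest of the receptors.
Csf2rb2: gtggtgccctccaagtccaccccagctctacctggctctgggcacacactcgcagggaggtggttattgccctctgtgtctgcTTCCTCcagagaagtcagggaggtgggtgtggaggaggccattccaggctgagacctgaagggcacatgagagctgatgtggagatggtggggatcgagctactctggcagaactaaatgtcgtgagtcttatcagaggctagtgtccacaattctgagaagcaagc
Kit: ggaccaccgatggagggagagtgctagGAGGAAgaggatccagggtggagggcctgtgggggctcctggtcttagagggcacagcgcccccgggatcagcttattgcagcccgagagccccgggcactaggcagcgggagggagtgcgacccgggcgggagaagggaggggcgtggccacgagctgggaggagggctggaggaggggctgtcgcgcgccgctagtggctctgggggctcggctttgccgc
Flt3: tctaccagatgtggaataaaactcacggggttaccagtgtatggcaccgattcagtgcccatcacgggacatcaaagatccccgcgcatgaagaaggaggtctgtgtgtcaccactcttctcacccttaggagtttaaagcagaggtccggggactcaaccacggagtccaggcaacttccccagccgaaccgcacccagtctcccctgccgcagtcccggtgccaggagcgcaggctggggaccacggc
Csf2ra: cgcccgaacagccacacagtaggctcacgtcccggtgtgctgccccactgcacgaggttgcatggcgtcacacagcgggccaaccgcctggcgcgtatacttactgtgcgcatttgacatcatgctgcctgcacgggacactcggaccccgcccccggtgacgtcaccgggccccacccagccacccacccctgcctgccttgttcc
GAGGAA was found in 3 of the 6 windows, and in 23.3% of all 32851 promoter windows of this length. Kit held it once, at -223, and Csf2rb2 once on the opposite strand, from -167. Csf2ra held it in tandem, but within the bases inside the annotated gene and not upstream of it. Flt3, Csf1 and Cebpa held none. The longer form GAGGAAGT was in none of the 6 and in 2.44% of all windows, and TTGCNNAA, a form of the C/EBP site, in none of the 6 and in 9.56%. These matches describe the windows and are no record of binding.

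Csf1r itself was read far above the floor on both arrays. It read 2507.3 (Il34+/LacZ) and 1510.7 (Il34LacZ/LacZ), which is 60.3% of the first reading and a difference of -0.72 (1.65-fold lower). The 500 genes nearest in level had a median of -0.51 and a 10th to 90th percentile range from -1.15 to 0.06, so the receptor lay within the bulk of its level, and 155 of them differed more strongly in the same direction. Those 500 genes spanned mean log2 levels of 9.59 to 12.29, against 10.94 for Csf1r, so the match in level was loose. With the trend removed the difference of Csf1r was -0.23, or 0.36 probe set SDs. The genes with the most similar pair of readings over the 2 arrays were Ifi30, a lysosomal thiol reductase, Mt1, a metallothionein, Pkm, the glycolytic pyruvate kinase, and Mcl1, a survival factor of the BCL2 family, at distances of 0.02 to 0.07 log2 units. They were matched on the readings, so their differences carry no further information.

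Kit and Flt3, the family members next to Csf1r, differed by more. Kit read 547.3 (Il34+/LacZ) and 196.1 (Il34LacZ/LacZ), a difference of -1.41 (2.66-fold lower) and -0.81 with the trend removed. Of the 500 genes nearest in level 52 lay lower still, and Kit was just inside their 10th percentile of -1.42. Flt3 read 330.6 and 121.0, a difference of -1.34 (2.53-fold lower) and -0.84 with the trend removed. For Flt3 46 of the nearest 500 lay lower, and it was just outside their 10th percentile of -1.31. The differences of Kit and Flt3 were 2.22 and 2.11 probe set SDs as deposited and 1.27 and 1.33 with the trend removed. Set against Csf1r, Kit was lower by a further -0.68 and Flt3 by a further -0.61, both less than the 0.90 that probe set noise gives for the gap between a pair of genes. The platelet-derived growth factor receptor gene Pdgfrb, of the same kinase family, read 50.6 and 63.4 and Pdgfra was below the floor on both arrays.

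Cells other than Langerhans cells that carry KIT or FLT3 were looked for by their markers. Of 8 mast cell markers, whose cells depend on KIT, 6 were below the floor on both arrays (Cpa3, Mcpt4, Cma1, Tpsb2, Ms4a2 and Mrgprb2), and the list summed to 277.0 (Il34+/LacZ) and 289.8 (Il34LacZ/LacZ). Gata2 read 64.4 and 88.0, and Hdc 70.7 and 62.9. Of 7 melanocyte markers, 4 were below the floor on both arrays (Dct, Tyr, Tyrp1 and Mitf), and the sums were 269.8 and 407.1. Sox10, Pmel and Mlana were brightest. Sox10 read 64.4 and 134.1, a difference of 0.90, or 0.97 with the trend removed. The part of either cell type in the Kit reading was not tested. Conventional dendritic cells carry FLT3, and their 10 markers summed to 4113 and 2159, with 6 and 5 at or above the floor. Sirpa (2040 and 869.8) and Itgae (1082 and 479.3) made up most of both sums, so the fall in the sum is mainly theirs. Irf8 came next in brightness, at 522.1 and 420.1, a difference of -0.30, or 0.32 with the trend removed. Xcr1, Clec9a, Btla and Tlr3 were below the floor on both arrays. Sirpa is also expressed by Langerhans cells, and which cells gave the Itgae reading was not tested. The part of dendritic cells in the Flt3 reading was not tested either.

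The chains of the GM-CSF receptor gave unequal differences. The alpha chain gene Csf2ra read 543.7 (Il34+/LacZ) and 452.2 (Il34LacZ/LacZ), a difference of -0.26 (1.20-fold lower) that turned to 0.36 with the trend removed. It was the smallest difference among these 6 receptor genes, and 393 of the 500 genes nearest in level lay lower. The shared beta chain gene Csf2rb read 1715.3 and 774.1, a difference of -1.13 (2.19-fold lower) and -0.57 with the trend removed, just short of the 0.58 that 1.5-fold requires. Csf2rb2 read 1278.0 and 410.0, the furthest apart of the 10 genes, with a difference of -1.60 (3.04-fold lower) and -0.998 with the trend removed. Of the 500 genes nearest in level to Csf2rb2 12 lay lower, and 67 did so for Csf2rb. Csf2rb2 differed from Csf2ra by -1.35 and Csf2rb from Csf2ra by -0.87, against 0.90 for 1 SD of such a gap. Csf2rb and Csf2rb2 are near-identical copies that lie close together on chromosome 15, so their probe sets may share signal and the gap of -0.47 between them is uncertain. The interleukin-3 receptor alpha chain gene Il3ra read 487.0 and 230.5, a difference of -1.03, or -0.42 with the trend removed. Il5ra was below the floor on both arrays. The receptor for G-CSF, Csf3r, read 41.8 and 63.5, at least 1.23-fold higher. Of the 11 receptor genes considered, 9 were at or above the floor, of which 6 were at least 1.5-fold lower and none higher (28.2% and 9.36% of all genes), or 3 and none with the trend removed (18.6% and 13.9%). Of the 6 lower, 5 are among the 10 genes described here, and the other 3 receptor genes at or above the floor, Il3ra, Pdgfrb and Csf3r, had 1 lower and a median of 0.25.

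**Figure D3:**
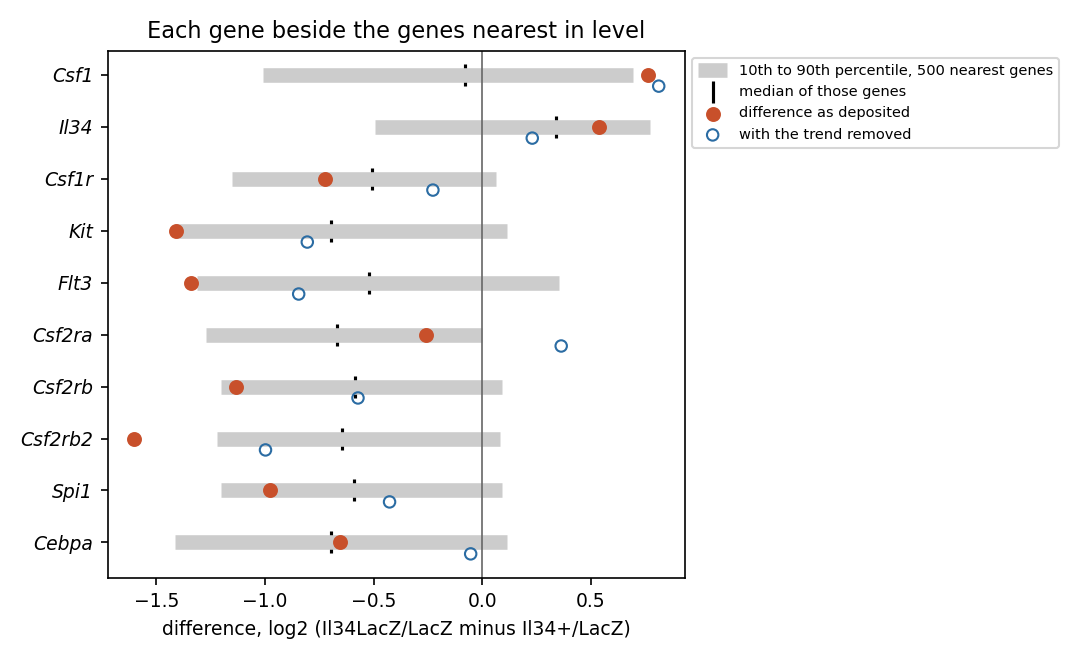
Difference of each of the 10 genes (log2, Il34LacZ/LacZ minus Il34+/LacZ) as deposited (filled) and with the trend removed (open), beside the 10th to 90th percentile (grey bar) and median (tick) of the deposited differences of the 500 genes nearest in mean level. Csf2rb2 and Flt3 lie below the bar and Csf1 above it, and the other 7 lie inside.

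Both transcription factors read lower, Spi1 by more than Cebpa. Spi1 read 1758.6 (Il34+/LacZ) and 885.7 (Il34LacZ/LacZ), a difference of -0.98 (1.97-fold lower) and -0.43 with the trend removed, and 99 of the 500 genes nearest in level lay lower. Cebpa read 417.3 and 258.8, a difference of -0.66 (1.58-fold lower), and with a median of -0.70 for the nearest 500 it was an ordinary gene of its level (-0.05 with the trend removed). The gap of 0.32 between both factors is within probe set noise. Of 24 myeloid transcription factors listed, Spi1 and Cebpa included, 23 were measured and at or above the floor, of which 9 (39.1%) were at least 1.5-fold lower and 1 higher, beside 28.2% and 9.36% of all genes. With the trend removed 2 were lower and 2 higher, beside 18.6% and 13.9%. Their median was -0.43, or 0.02 with the trend removed. Runx1, a factor of blood stem cells and myeloid progenitors, was 2.84-fold lower (437.6 and 143.6) and Cebpd, another C/EBP factor, 2.05-fold lower (182.7 and 80.7). With the trend removed the differences of Runx1 and Cebpd were -0.95 and -0.77. Maf, a factor of tissue macrophages, was 1.89-fold higher (145.8 and 289.6), a difference of 1.42 with the trend removed. Cebpb, which acts in inflammatory macrophages, read 442.8 and 608.1, a difference of 0.44, or 1.06 with the trend removed.

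Below the receptors, several kinases read lower in Il34LacZ/LacZ. Of 24 signalling genes, 20 were measured and 19 were at or above the floor, of which 9 (47.4%) were at least 1.5-fold lower and none higher, beside 28.2% and 9.36% of all genes, or 5 and 1 with the trend removed, beside 18.6% and 13.9%. Their median was -0.56, or -0.04 with the trend removed. The furthest apart were the SRC family kinase gene Fyn, 3.38-fold lower (398.9 and 106.8), Jak2, the kinase of the GM-CSF receptor's beta chain, 2.46-fold lower (495.7 and 192.0), and the PI3-kinase catalytic gene Pik3cg, 2.34-fold lower (372.9 and 149.9). With the trend removed the differences of Fyn, Jak2 and Pik3cg were -1.25, -0.70 and -0.68. Stat5a, a transcription factor that GM-CSF activates, read 258.9 and 330.8, a difference of 0.34, or 0.92 with the trend removed. Fyn is also a kinase of T cells, and the 6 measured T cell markers were all at or above the floor on both arrays, with sums of 6565 (Il34+/LacZ) and 5866 (Il34LacZ/LacZ). Thy1, Cd3g and Cd3e were the brightest of them, and Cd3e read 1245.4 and 1250.3. The others went both ways, with differences of -0.35 for Thy1, -0.46 for Cd3d and -0.55 for Cd247, and of 0.13 for Cd3g and 0.21 for Zap70. The part of T cells in the readings of these genes was not tested.

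Genes that restrain the receptors gave readings in both directions. Of 19 such genes, none of them under the floor on both arrays, 11 (57.9%) were at least 1.5-fold lower and 2 (10.5%) higher, beside 28.2% and 9.36% of all genes. With the trend removed 4 were lower and 2 higher, beside 18.6% and 13.9%, and the median went from -0.68 to -0.07. Adam17, the protease that sheds CSF1R and KIT from the cell surface, was 2.73-fold lower (257.9 and 84.2), and the adaptor gene Dok3 was 2.50-fold lower (500.2 and 190.1). With the trend removed the differences of Adam17 and Dok3 were -1.08 and -0.73. Socs2 and Spry1, feedback inhibitors of cytokine and kinase signalling, were 1.84-fold and 1.73-fold higher (49.8 and 105.2, and 58.4 and 112.5), both from a reading near the floor. Socs2 has 2 probe sets, and its call does not hold with their mean in place of the brighter one. Spry1, with 1 probe set, was then the only gene of this list called higher. Over all lists without the 10 genes, 65 genes were at or above the floor, of which 28 were lower and 4 higher as deposited, and 11 and 6 with the trend removed, with a median of -0.43 and of 0.02.

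**Figure D4:**
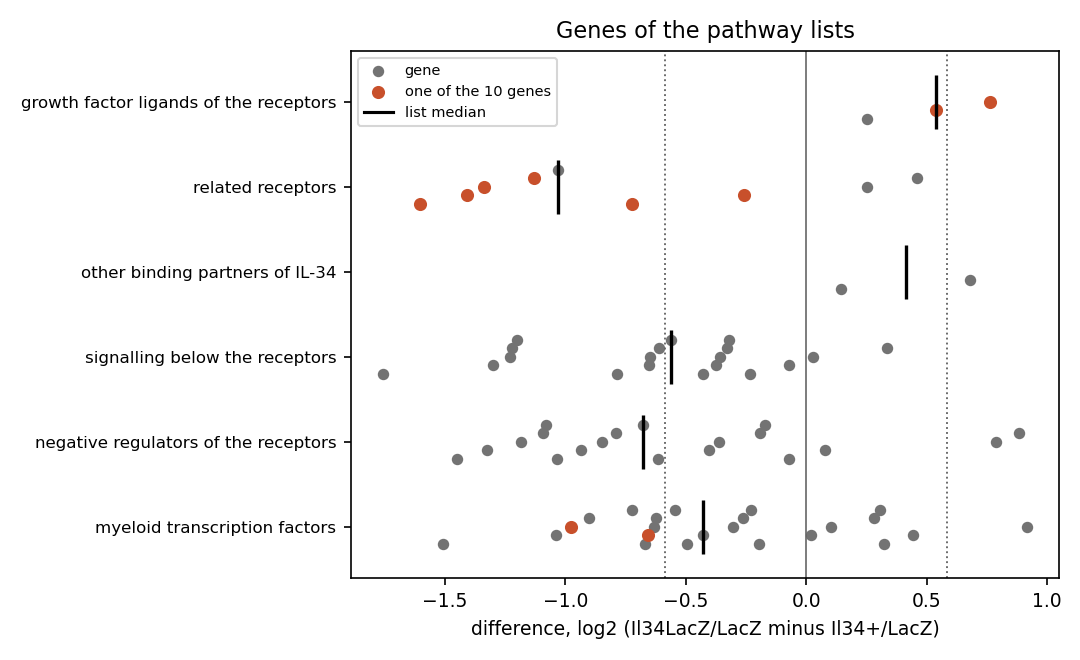
Difference (log2, Il34LacZ/LacZ minus Il34+/LacZ) of each gene at or above the floor in 6 lists, with the 10 genes in red, the list median as a bar and dotted lines at 1.5-fold; vertical spread within a list carries no value. The median was -1.03 for the related receptors and 0.54 for the ligands (0.31 with Il34 in Il34+/LacZ set to the floor), of which only 3 were at or above the floor.

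Marker genes of the sorted cells were read as well. Langerin and Epcam were themselves the sorting markers, and a reading above the floor does not measure purity. All 12 Langerhans cell markers exceeded the floor on both arrays, with sums of 34328 (Il34+/LacZ) and 28317 (Il34LacZ/LacZ), 5 of them at least 1.5-fold lower and none higher, beside 28.2% and 9.36% of all genes. With the trend removed none was lower, and Epcam alone was higher, beside 18.6% and 13.9% of all genes. H2-Ab1, Cd74 and H2-Aa were brightest and made up most of both sums, at 7582, 7514 and 7304 (Il34+/LacZ) and 7154, 6837 and 6551 (Il34LacZ/LacZ). The median difference of the 12 markers was -0.54. Cd207, which encodes Langerin, read 3153 and 1852, and Epcam 632.9 and 707.7. Other cells that carry the receptors described here were read too. Of 12 measured monocyte and macrophage markers, cells that carry CSF1R and the GM-CSF receptor, 11 were at or above the floor on each array, with sums of 2374 and 4004 and with Pf4, Cd14 and C1qa brightest. Without Pf4 the sums were 2226 and 3029. Of this list 4 were at least 1.5-fold higher and 2 lower (Adgre1, at -0.89, and Plac8, at -0.82), beside 9.36% and 28.2% of all genes. With the trend removed 6 were higher and none lower, beside 13.9% and 18.6%. The 9 neutrophil markers summed to 334.5 and 1527, led by S100a9, S100a8 and Camp, with Ly6g, Ltf, Mmp8 and Cxcr2 below the floor on both arrays. S100a9 (103.2 and 698.6) and S100a8 (71.9 and 552.1) made up most of both sums. Of this list 3 were at least 1.5-fold higher and 0 lower, beside 9.36% and 28.2% of all genes. With the trend removed 4 were higher and 0 lower, beside 13.9% and 18.6%. The macrophage and neutrophil marker sums were both higher in Il34LacZ/LacZ, where Csf1r, Csf2rb and Spi1 read lower, and the part of these cells in those readings was not tested.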

How the data were processed

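Gene expression was measured on Affymetrix mouse gene arrays, 1 for each genotype, from cRNA made of 2 ng of total RNA per the labels' protocols. The values the authors deposited are processed intensities on a linear scale, 1 for each probe set of an array; the sources used here do not give background removal, summarisation or scaling. Of 34760 probe sets, 21640 had 1 gene symbol, 1321 several and 11799 none, and only the first were named. RefSeq (GRCm38.p6) held 21553 of these by gene number. A gene was represented by its brightest probe set, and 16 was added before log2, which understates folds of dim genes. Where the dimmer reading was below the floor, calls used the floor, except those with the trend removed, which used the trend-removed difference itself. Counts with the trend removed thus differ from the deposited ones in this rule as well as in the trend. Of the 12843 genes at or above the floor, 9803 were so on both arrays and are not touched by the rule. The trend was a loess fit (fraction 0.3) to probe sets with 1 symbol. The 500 nearest genes were taken by mean log2 level, whatever the width this needed. They spanned 9.59 to 12.29 for Csf1r, 9.40 to 10.98 for Csf2rb and 9.45 to 11.16 for Spi1, against 6.69 to 6.80 for Csf1. Readings of different probe sets were matched only to find genes of similar reading and the brightest markers, and say nothing of relative transcript amounts. Named list genes were the furthest apart in each direction (up to 4 a list). Named markers were up to 3 of the brightest a list and, in most lists, those below the floor on both arrays. Cd207, Epcam, Cd3e, Cd3d, Cd247, Zap70, Adgre1, Plac8, Cdh5 and Col3a1 were added after their values were seen. So were the factors and receptors given beyond these, such as Il3ra and Pdgfrb. The genes and lists were chosen with earlier results of these data known. Of 12 motifs searched, 3 are given. Python 3.11.15, numpy 2.4.6, pandas 2.3.3 and statsmodels 0.14.6 were used, and the scripts were tested on simulated data.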

Additional observations from a re-analysis of the deposited data

How the results depend on the processing

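Of the 10 genes, 9 kept the direction of their difference under 7 alternatives (pseudocounts of 4 and 64, the trend removed with fractions of 0.3 and 0.6, median centring, quantile normalization and the mean of all probe sets). The mean of all probe sets could not change any of these 10, since each has 1 probe set, so it is no check on them. Csf2ra, which was not called, kept its direction in 4 of 7, that fixed setting included. It read 0.36, 0.35 and 0.28 with the trend removed (fractions 0.3 and 0.6) and after quantile normalization. The trend removal and quantile normalization raised the median of all genes at or above the floor by 0.18 to 0.20, and centring dropped it by 0.20. The count of the 10 genes at least 1.5-fold lower went from 7 to 3 under both trend fractions and to 4 after quantile normalization (Csf2rb joined). Their median went from -0.85 to -0.33, -0.23 and -0.39. Of all genes at or above the floor, 28.2% were lower as deposited, and 18.6%, 18.8% and 16.9% in those 3 settings. Over the other genes of the lists, 28 of 65 lower became 11 of 65 in each of those 3 settings, about the share of all genes. The 4 higher became 7 after quantile normalization, beside 9.36% of all genes as deposited and 14.4% in that setting. The median of these list genes, -0.43 as deposited, became 0.024, 0.067 and 0.013 in the 3 settings. With centring that median was -0.61. With a pseudocount of 64, or with the floor at the 75th percentile, 0 of the 10 genes and 1 of the other list genes were higher, beside 3.57% and 3.85% of all genes in those settings. With that floor, which leaves 54 list genes, the median of the list genes was -0.61. That floor, an intensity of 126.9, leaves out Csf1 and Il34. Settings not named here left these counts within 1.5 times. No paired analysis was possible because each genotype has 1 array, and no replicate could be left out. The ligands lie close to the floor, which limits what can be read from them.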
